A study of Homo sapiens with 4 samples.

Results

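The end points of hematopoietic differentiation were compared: undifferentiated BC1 cells, a human induced pluripotent stem cell (iPSC) line, and the CD43+ hematopoietic progenitor cells (HPCs) obtained from them. A gene entered the comparison when it reached 1 FPKM, a unit that gives fragments for each kilobase of a transcript, per 1000000 mapped fragments, in at least 1 of the end columns. This left 15894 of 58274 gene identifiers. Levels were compared as log2(FPKM + 1), and a difference is CD43+ minus BC1 on this scale. A gene was called gained at a difference of 2 or more, lost at -2 or less and kept when the difference was under 0.5 in size.

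The study followed 1 cell line through 3 sorted populations. BC1 cells were grown in mTeSR1 medium on Matrigel, then given activin A and BMP4 until day 2, when APLNR+ mesoderm cells were sorted. VEGF and bFGF followed, with CD31+CD34+ hemogenic endothelial progenitors (HEPs) sorted at day 5 and CD43+ HPCs at day 8. Each population is represented by 1 library of total RNA from 1 line, so no difference has a replicate check, no test between populations was run, and intervals cover counting error only. The depths read from the values lay between 19500000 mapped fragments in BC1 and 23400000 in CD31+CD34+. Sorting for a surface protein enriches cells and does not make a population pure, and in bulk RNA fewer cells of a type and less RNA per cell cannot be told apart.

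Pluripotent stem cells form an epithelium-like sheet held together by E-cadherin and are maintained by a circuit of transcription factors around OCT4, SOX2 and NANOG. During the formation of the first blood cells, mesoderm passes through an endothelial state and then loses its junctions as hematopoietic cells round up and detach. The first blood cells of the embryo are mostly erythroid and megakaryocytic cells with embryonic globins, together with macrophages.

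Both end points carried the marker genes of their labels. POU5F1, which encodes OCT4, was at 1997 FPKM in BC1 and 573 in APLNR+ cells, then 1.87 in CD31+CD34+ and 0.235 in CD43+ cells. The CD43+ level was 8493-fold lower than in BC1, with a 95% counting interval of 3515 to 25269. DNMT3B, a de novo DNA methyltransferase abundant in pluripotent cells, was at 513 FPKM in BC1 and 124 in APLNR+ cells, then 74 in CD31+CD34+ and 78.7 in CD43+ cells. This gene was 6.52-fold lower at the end (6.35 to 6.69) and remained well expressed. SPN, the gene of the sorted CD43 antigen itself, was at 1.06 FPKM in BC1 and 0.294 in APLNR+ cells, then 11.7 in CD31+CD34+ and 92.4 in CD43+ cells. Its level in CD43+ was 87.2-fold that of BC1 (61.9 to 124). ITGA2B, the CD41 integrin chain of early progenitors and platelets, was at 10.2 FPKM in BC1 and 3.74 in APLNR+ cells, then 60.9 in CD31+CD34+ and 982 in CD43+ cells, a ratio of 96.2 (87.8 to 106). In the deposited coordinates these genes are POU5F1 (ENSG00000204531.17, chr6:31164337-31180731), DNMT3B (ENSG00000088305.18, chr20:32762385-32809356), SPN (ENSG00000197471.11, chr16:29662979-29670876) and ITGA2B (ENSG00000005961.17, chr17:44372180-44389505). PTPRC, which encodes the pan-leukocyte antigen CD45, was at or below 0.0349 FPKM in all 4 libraries.

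Between the end points, 921 genes were gained (5.79% of those compared), 1160 were lost (7.30%) and 5948 were kept (37.4%). The other 7865 genes differed by 0.5 to 2. A change is placed in CD43+ only when the APLNR+ and CD31+CD34+ levels were both more than 1 short of the CD43+ level. Such a gene may already have changed in part in those populations. The median difference over all compared genes was -0.08, and 46.7% of them were higher in CD43+. Gained genes held 0.788% of all FPKM in BC1 and 1.96% in APLNR+ cells, then 6.04% in CD31+CD34+ and 11.8% in CD43+ cells. Lost genes moved the other way, from 7.01% in BC1 through 4.42% and 2.35% to 0.47%, while kept genes held 58.1% at the start and 54.3% at the end. Of 1722 gained or lost genes with an estimated counting interval, 1719 had an interval that lay wholly above a 2-fold ratio. The genes were called from the same values at a larger difference, so this count is not a check on the calls. Gained or lost genes without an interval are not in it.

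**Figure D1:**
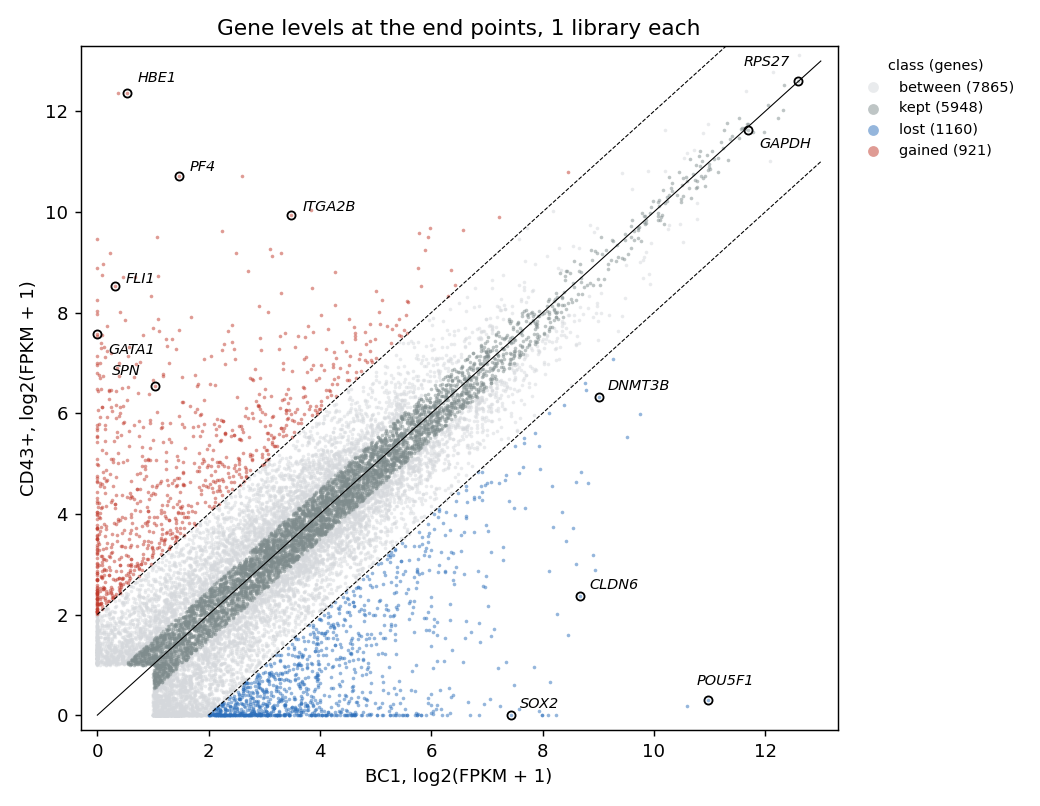
Each point is 1 gene, with log2(FPKM + 1) in BC1 on the x axis and in CD43+ on the y axis. The solid line marks equal levels and the dashed lines a difference of 2. The 921 gained genes lie above the upper dashed line, the 1160 lost genes below the lower line, and POU5F1 is at the far right of the lost genes.

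The thresholds cut through a continuous range of differences. TSPAN15 at 6.93 FPKM in BC1 and 30.8 in CD43+ and RNPEPL1 at 4.94 and 22.8 were the gained genes nearest to the limit, and RNF24 at 3.94 FPKM in BC1 and 18.7 in CD43+ and TSPAN18 at 7.33 and 32.3 were just under it. RIPPLY2 at 3 and 0 FPKM and CRYBG1 at 3.35 and 0.0866 were just inside the lost genes, and GALNT3 at 3.98 and 0.247 and SLC19A3 at 3.19 and 0.0492 just outside.

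The second largest loss was a noncoding gene that hosts microRNAs. AC106864.1 (GRCh38, chr4:112646476-112650051, minus strand) lies inside LARP7 on the opposite strand and spans the hairpins of the miR-302/367 cluster, a microRNA cluster characteristic of human pluripotent cells. The mature sequences are given 5′ to 3′ from RefSeq on GRCh38.p14, with the seed (bases 2 to 8) in capitals. They are shown because the 4 miR-302 members share 1 seed and miR-367 has another.
hsa-miR-302a-3p: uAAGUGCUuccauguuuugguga
hsa-miR-302b-3p: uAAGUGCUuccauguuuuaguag
hsa-miR-302c-3p: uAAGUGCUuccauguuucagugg
hsa-miR-302d-3p: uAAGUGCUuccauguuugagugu
hsa-miR-367-3p: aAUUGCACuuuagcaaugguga
These are encoded at chr4:112648186-112648208, chr4:112648489-112648511, chr4:112648366-112648388, chr4:112648006-112648028 and chr4:112647877-112647898. The host was at 1555 FPKM in BC1 and 726 in APLNR+ cells, then 2.73 in CD31+CD34+ and 0.13 in CD43+ cells, so CD43+ was at least 828-fold lower than BC1. LARP7, which binds 7SK RNA, was kept, with 21.1, 18.3, 22 and 17.9 FPKM in the same order of populations. The strand setting of the counting is not given in the sources used here, so reads of the host and of LARP7 cannot be told apart where they overlap, and mature microRNAs are not measured by these libraries.

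Hosts of hematopoietic and endothelial microRNAs were among the gained genes. The mature sequences of the microRNAs named here are shown because their seeds differ from those of the miR-302/367 cluster and from each other.
hsa-miR-126-3p: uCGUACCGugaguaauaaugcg
hsa-miR-223-3p: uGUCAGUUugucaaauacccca
hsa-miR-142-3p: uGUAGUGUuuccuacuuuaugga
They are encoded at chr9:136670653-136670674 inside EGFL7, chrX:66018937-66018958 inside AL034397.3 and chr17:58331245-58331267 inside AC004687.1. EGFL7, a secreted endothelial protein gene whose intron holds miR-126, was at 33.7 FPKM in BC1 and 36.1 in APLNR+ cells, then 800.1 in CD31+CD34+ and 302 in CD43+ cells. AL034397.3, which spans the myeloid miR-223, was at 0 in BC1 and APLNR+, 0.27 FPKM in CD31+CD34+ and 14 in CD43+. AC004687.1, which spans the blood-cell miR-142, was at 0.186 FPKM in BC1 and 0.0342 in APLNR+ cells, then 0.535 in CD31+CD34+ and 17.8 in CD43+ cells. EGFL7 was highest in CD31+CD34+, and the other hosts were nearly absent before CD43+. MIR17HG, the host of the miR-17 to miR-92 cluster, was lost, from 14.6 FPKM to 1.29. A gene of any kind with a hairpin on its own strand made up 6.51% of gained genes, 5.34% of lost genes and 4.51% of all genes compared. The hosts named here were chosen after their values were seen, and strand use limits AL034397.3 and AC004687.1 as it does AC106864.1.

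The promoters of marker genes were read from RefSeq windows of 300 bases around each start on GRCh38.p14. Of the 4 marker genes, ITGA2B (chr17:44389600-44389899, minus strand) had a window and is shown as the gained marker. This window lies just upstream of the deposited interval and does not reach it, so it too is at another start. The DNMT3B window lies inside that gene's interval, at another start, and is not shown. SFRP2 (chr4:153789034-153789333, minus strand), a secreted Wnt modulator among the 12 largest losses, was added after its values were seen because its window holds an octamer.
ITGA2B: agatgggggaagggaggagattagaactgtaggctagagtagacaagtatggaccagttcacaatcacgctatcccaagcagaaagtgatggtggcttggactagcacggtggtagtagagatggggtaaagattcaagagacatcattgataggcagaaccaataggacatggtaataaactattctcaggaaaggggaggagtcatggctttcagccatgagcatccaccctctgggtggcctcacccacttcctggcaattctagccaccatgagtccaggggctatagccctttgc
SFRP2: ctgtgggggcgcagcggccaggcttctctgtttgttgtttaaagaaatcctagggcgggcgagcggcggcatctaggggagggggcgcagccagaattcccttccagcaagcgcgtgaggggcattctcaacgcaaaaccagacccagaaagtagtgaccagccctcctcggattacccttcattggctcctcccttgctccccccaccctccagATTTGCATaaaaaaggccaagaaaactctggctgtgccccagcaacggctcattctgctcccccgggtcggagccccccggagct
Capitals mark the match to the octamer ATGCAAAT, the element read by OCT4 and related POU factors, which lies on the reverse strand 35 bases before the start of SFRP2. The ITGA2B window, which leaves out the start of the deposited interval, held none of the exact words searched on both strands. These were the GATA words AGATAA and TGATAA, the octamer ATGCAAAT, the ETS word CCGGAAGT and the E-box CACGTG. Other forms of GATA or ETS sites were not searched, so the window may hold such sites.

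Windows were found for 601 gained, 739 lost and 4246 kept genes, some with several starts. A GATA word was in 15% of the windows of gained genes, 9.7% of those of lost genes, 8.16% of those of kept genes and 9.38% of those of all compared genes. It was in 18.8% of the windows of genes gained in CD43+ only, and in 16.3% of all windows in the table, whether the gene was expressed or not. The octamer was in 1.86% of windows of lost genes, 1.5% of gained, 1.15% of kept and 1.32% of all compared genes, and in 1.77% of all windows. The ETS word was in 10.1% of windows of kept genes against 1.5% of gained, 1.54% of lost and 6.95% of all compared genes. These shares describe letters in a window, which may not lie at the start a gene used in these cells, and were not tested.

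Many of the deepest losses were pluripotency genes. Of 18 listed transcription factors of pluripotent cells, 16 were lost and none was gained, with a median difference of -4.62 against -0.08 for all genes. These lists and those that follow were drawn up with earlier results of these data known, and members named beyond the largest differences of a list were chosen after their values were seen. SOX2, a partner of OCT4, was at 172, 0.766, 0 and 0 FPKM in BC1, APLNR+, CD31+CD34+ and CD43+, at least 2735-fold lower at the end. NANOG was at 23.6, 0.957, 0.0346 and 0.00945 FPKM, and FOXD3, a factor of pluripotent and neural crest cells, at 46.2, 0.0511, 0.0234 and 0 FPKM. ZSCAN10, a zinc finger factor, was at 149.6, 45, 3.77 and 0.132 FPKM. The factors differed in when they were low: SOX2, NANOG and FOXD3 were under 1 FPKM in APLNR+, while POU5F1 and ZSCAN10 were not. OTX2, an anterior epiblast factor, was higher in APLNR+ than in BC1 before it was lost, at 20.5, 82.8, 1 and 0 FPKM. SALL4 and FOXO1 were the members that stayed between the limits, SALL4 at 53.9 FPKM in BC1 and 18.9 in CD43+.

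Of 28 listed surface, RNA and signaling genes of pluripotent cells, 18 were lost and none was gained, with a median difference of -3.70 over all of them. TDGF1, a Nodal co-receptor, was at 271, 259.9, 0.559 and 0 FPKM in the order of differentiation. Its APLNR+ level was close to that of BC1, and it was nearly absent from CD31+CD34+ on. L1TD1, an RNA-binding protein of pluripotent cells, was at 189.7, 116, 1.23 and 0.0909 FPKM, and ALPL, tissue-nonspecific alkaline phosphatase, at 178, 77.7, 6.14 and 0.511 FPKM. These genes were lost stepwise. ESRG, a noncoding RNA of pluripotent cells, was low already in APLNR+, at 253, 0.615, 0 and 0 FPKM. Other noncoding RNAs shared this pattern, among them FOXD3-AS1, antisense to FOXD3, at 252, 2.47, 0 and 0 FPKM, LINC00678 at 115, 0.975, 0 and 0 FPKM and AC064802.1 at 103, 0.107, 0 and 0 FPKM. CRABP1, a retinoic acid binding protein, was at 281, 51.8, 0.601 and 0.569 FPKM. TERF1, a telomere protein abundant in pluripotent cells, was at 289, 23, 15.6 and 12.4 FPKM and kept a low level to the end. Not all members went: LIN28B, a repressor of let-7 processing, was kept at 26.2, 28, 19.4 and 22.3 FPKM, and its paralog LIN28A remained at 92.9 FPKM in CD43+ from 363 in BC1.

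Most genes of epithelial junctions were lost. Of 30 listed, 23 were lost (8 from APLNR+ on, 7 from CD31+CD34+ on and 8 only in CD43+), none was gained and JUP was kept, and the median difference over all of them was -3.45. CDH1, the gene of E-cadherin, was at 70.9 FPKM in BC1 and 5.14 in APLNR+ cells, then 0.178 in CD31+CD34+ and 0.0899 in CD43+ cells, so BC1 was 789-fold higher (351 to 2084). EPCAM, an epithelial adhesion molecule, was at 81.8, 3.51, 2.01 and 1.44 FPKM, and CLDN6, a tight junction claudin of pluripotent cells, at 409, 68.3, 15 and 4.16 FPKM. CDH1 and EPCAM were low in APLNR+ already, and CLDN6 was lower at each step. CDH3, the gene of P-cadherin, was also lower at each step, at 99.6, 18.6, 2.48 and 0.207 FPKM. DMKN, an epidermal secreted protein outside the list, was at 228, 149.8, 4.1 and 0.931 FPKM. The keratin gene KRT19 was higher in APLNR+ than at either end, at 79.8, 228, 45.5 and 3.64 FPKM. JUP, a plakoglobin shared by epithelial and endothelial junctions, was at 53.6, 59.7, 128 and 65.8 FPKM.

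Of 22 listed neural and ectoderm genes, 10 were lost and none was gained, and 8 were under 1 FPKM at both ends. The list shares SOX2, SOX3, ZIC2 and OTX2 with the pluripotency factors. SOX3 was at 40.02, 0.0748, 0 and 0 FPKM. ZIC2, a zinc finger factor of the epiblast and neural plate, was at 79.9, 78.9, 0.77 and 0.0343 FPKM, nearly equal in BC1 and APLNR+. TUBB3, a tubulin of neurons that pluripotent cells also express, was at 275, 108, 36 and 6.28 FPKM. CDH2, the gene of N-cadherin, was at 12.8 FPKM in BC1, 45.3 in APLNR+ and 0.682 in CD43+, highest in APLNR+.

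Most blood transcription factors were gained. Of 28 listed, 22 were gained, and TRIB2, a pseudokinase, was the member lost. The median difference over all of them was 5.20. FLI1, an ETS factor of endothelium and megakaryocytes, was at 0.238 FPKM in BC1 and 2.95 in APLNR+ cells, then 316 in CD31+CD34+ and 367 in CD43+ cells. GATA2, a factor of hemogenic endothelium and progenitors, was at 0.125, 32, 254 and 211 FPKM along the same order, and LMO2, a bridging protein of the GATA and TAL1 complex, at 0.756, 0.459, 107 and 188 FPKM. These genes had reached the CD43+ level in CD31+CD34+, as 8 of the 22 had. HHEX, a homeobox factor of early endoderm and hemangioblasts, was above it there, at 0.38, 7.13, 87.9 and 31.5 FPKM.

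Other factors were still well below their CD43+ level in CD31+CD34+. GATA1, the erythroid and megakaryocytic GATA factor, was at 0 in BC1 and APLNR+, 13.4 FPKM in CD31+CD34+ and 189.8 in CD43+. RUNX1, required for the endothelial-to-hematopoietic transition, was at 0.0962, 4.15, 60.1 and 137 FPKM in the 4 libraries, and TAL1, a bHLH regulator of blood formation, at 0, 0.0608, 71.2 and 184 FPKM. SPI1, which encodes the myeloid factor PU.1, was at 0.572, 1.12, 32 and 104 FPKM, and GFI1B, an erythroid and megakaryocytic repressor, at 0.0552, 0.0338, 35.9 and 188 FPKM. GFI1, its paralog, was lower in CD43+ than in CD31+CD34+, at 0.0209, 0.0958, 27.9 and 3.63 FPKM. HOXA9, a factor of definitive stem cells, was at or below 0.0835 FPKM in every library, and MECOM was at 7.64 FPKM in CD31+CD34+ and 1.5 in CD43+.

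Platelet and megakaryocyte genes were the most completely gained list. Of 29 listed, 26 were gained, 24 of these in CD43+ only, and the median difference was 5.35. PF4, a chemokine of platelet granules, was at 1.76 FPKM in BC1 and 0 in APLNR+ cells, then 14.4 in CD31+CD34+ and 1674 in CD43+ cells. ITGB3, the beta chain that pairs with ITGA2B as the fibrinogen receptor, was at 0.0753, 0.0673, 6.68 and 501 FPKM in the 4 libraries, and PLEK, a protein kinase C substrate of platelets, at 0.0584, 0.161, 0.294 and 429.7 FPKM. TUBB1, the platelet tubulin, was at 0.0637, 0.216, 0.238 and 68.9 FPKM, and GP9, a subunit of the von Willebrand factor receptor, at 0, 0, 0.625 and 53.2 FPKM. CD43+ was the highest library for each of these genes, and the others were far below it. PPBP, another granule chemokine, was at 0.334, 0.206, 0.194 and 256 FPKM, and THBS1, the adhesive granule protein thrombospondin, at 8.79, 4.22, 1.47 and 579 FPKM. CD9, a tetraspanin that pluripotent cells also carry, was the member lost, at 119, 15.1, 39.8 and 20.7 FPKM, and VWF was at 13.7 FPKM in CD31+CD34+ and 1.54 in CD43+.

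The globins HBG2 and HBE1 had the largest differences of the comparison. Of 11 listed genes of globins and their chaperone, 9 were gained, all of them in CD43+ only, with a median difference of 5.78. HBG2, a fetal gamma globin, was at 0.295 FPKM in BC1 and 0.55 in APLNR+ cells, then 9.69 in CD31+CD34+ and 5256 in CD43+ cells. HBE1, the embryonic epsilon globin, was at 0.447 FPKM in BC1 and 0.148 in APLNR+ cells, then 10.6 in CD31+CD34+ and 5271 in CD43+ cells. HBZ, the embryonic zeta globin, was at 0 in BC1 and APLNR+, 0.445 FPKM in CD31+CD34+ and 474 in CD43+. The adult beta globin HBB was at 0.979, 0.766, 0.381 and 6.36 FPKM along the same order and missed the limit. The alpha globin chaperone AHSP was kept, at 2.35, 0, 0 and 3.08 FPKM. Together the globins held 1.8% of all FPKM in CD43+. HBG1 was listed at 45 FPKM and HBA1 at 65.3 beside HBA2 at 417, but the copies of each pair are nearly identical and how reads were split between them is uncertain.

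Red cell genes were gained less evenly. Of 24 listed membrane genes, 9 were gained, 6 stayed under 1 FPKM at both ends and ADD2 was lost, with a median difference of 1.80 over all of them. The glycophorin genes GYPB and GYPE reached 304 and 127 FPKM in CD43+, with uncertainty of reads split between near-identical copies. RHAG, the Rh-associated glycoprotein, was at 0, 0.0495, 25.4 and 111 FPKM along the order. SLC4A1, the anion exchanger of mature red cells, reached 1.5 FPKM in CD43+, and EPB42 0.51. ADD2, an adductin shared with neural cells, was at 134, 27.1, 7.59 and 1.98 FPKM.

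All 24 listed genes of heme synthesis and iron were above 1 FPKM at an end, 7 were gained and none was lost, with a median difference of 0.93. ALAS2, the erythroid enzyme of the first step, was at 0.0331, 0.988, 3.85 and 126 FPKM, and its housekeeping counterpart ALAS1 was kept at 15.4, 16.1, 23.1 and 19.3 FPKM. CPOX, a later enzyme of the pathway, was at 19.97, 19.9, 57.8 and 171 FPKM. SLC40A1, the iron exporter ferroportin, was at 0.462, 11.3, 2.54 and 91.5 FPKM. SLC25A37, the mitochondrial iron importer mitoferrin, was gained at 13.6, 20.9, 36.5 and 124 FPKM. TFRC, the transferrin receptor, was lower in CD31+CD34+ than in the other libraries, at 34.3, 34.4, 4.61 and 50.4 FPKM.

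**Figure D2:**
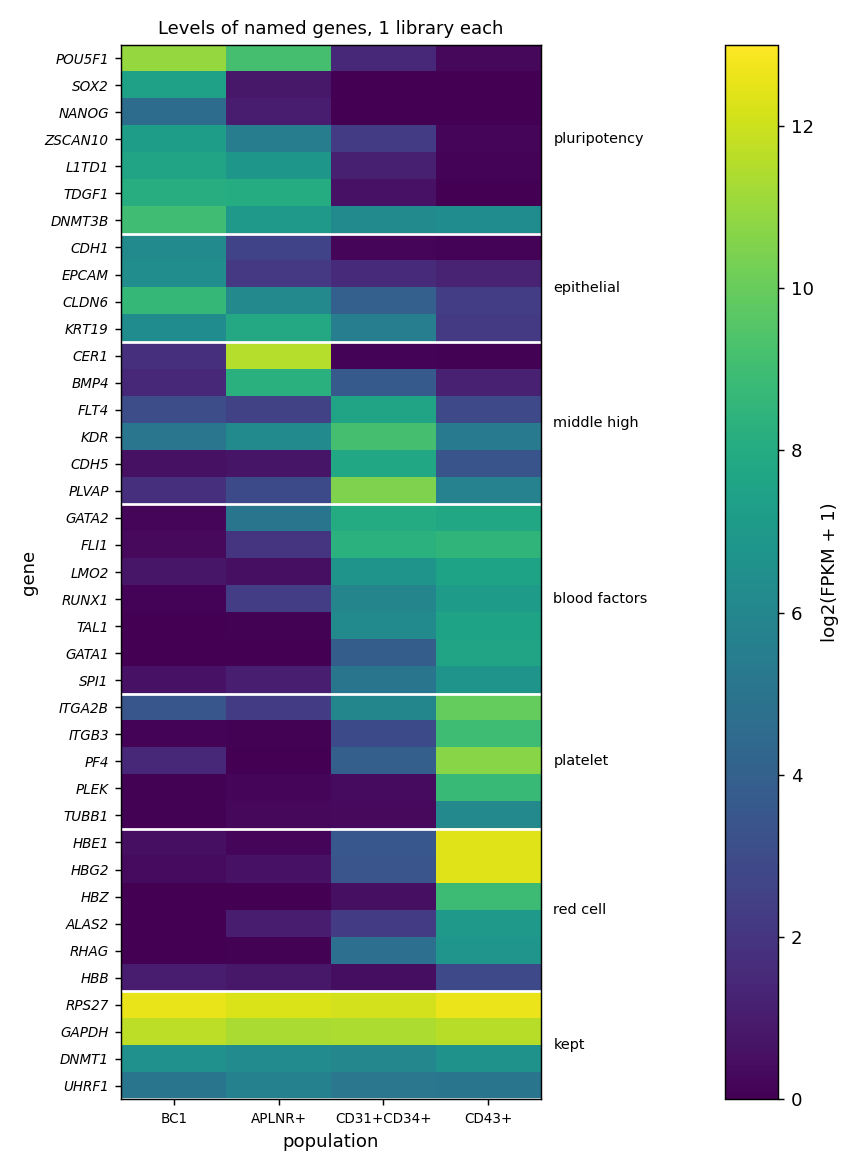
Colors give log2(FPKM + 1) of named genes (rows) in the 4 populations (columns, 1 library each), grouped by role. Pluripotency and epithelial genes are bright on the left, platelet and red cell genes on the right, and BMP4 and FLT4 are bright in the middle columns only.

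Myeloid genes were gained in part. Of 27 listed, 10 were gained and 15 were under 1 FPKM at both ends, which left the median over all of them at 0.35. TYROBP, a signaling adapter, was at 1.37 FPKM in BC1 and 2.35 in APLNR+ cells, then 8.13 in CD31+CD34+ and 161 in CD43+ cells, and FCER1G, the common Fc receptor gamma chain, at 0.458, 1.14, 30.4 and 139.9 FPKM. CSF1R, the receptor of macrophage colony-stimulating factor, reached 8.8 FPKM in CD43+ from 0.0738 in BC1. LST1, a leukocyte membrane protein, was at 0 in BC1 and APLNR+, 0.242 FPKM in CD31+CD34+ and 20.7 in CD43+. AIF1, a macrophage gene of the list, was also gained, at 17.8, 6.62, 12.6 and 125 FPKM. Some other listed members were low. The granule enzymes MPO and ELANE, which mark granulocyte precursors, were at 0.079 and 0 FPKM in CD43+, and CD14 was at 0.0339.

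Mast cell and lymphoid markers were mostly absent. Of 15 mast cell and eosinophil genes, 4 were gained, among them GATA2 and HDC, the histamine-forming enzyme, at 0.198, 0.516, 0.182 and 18.3 FPKM. CLC, an eosinophil and basophil lectin, was lost, at 4.72, 0, 0 and 0 FPKM. MITF, a factor of mast cells and pigment cells, was at 0.363, 2.73, 6.32 and 19.7 FPKM. The mast cell proteases TPSB2 and CMA1 were at 0 in every library. Of 22 lymphoid genes, 1 was gained: CD7, an early T and NK lineage antigen that progenitors also express, at 2.25, 1.82, 1.83 and 15.6 FPKM. CD3G and MS4A1, which define T and B cells, were at 0 throughout. Only 6 mast cell and eosinophil genes and 6 lymphoid genes were compared. Over all compared genes, 5.79% were gained and 7.30% lost, and these lists were not tested against those shares.

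Of 21 listed cytokine receptors, 5 were gained, none was lost, and 10 were under 1 FPKM at both ends, where 5.79% of all compared genes were gained. IL6ST, the shared gp130 chain, was at 1.25, 19.6, 45 and 51.8 FPKM. EPOR, the erythropoietin receptor, fell just under the limit at 7.49, 13.9, 35.2 and 30.6 FPKM, a difference of 1.90. KIT, the stem cell factor receptor, was kept at 5.54, 1.59, 7.79 and 6.65 FPKM, and FLT3 was at 0 in all populations after BC1.

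Of 39 genes of blood cell signaling and cytoskeleton, 22 were gained, with a median difference of 2.36. PIK3CD, a leukocyte PI3 kinase subunit at 6.07, 3.63, 5.32 and 0.572 FPKM, was the member lost. ARHGDIB, a GDP-dissociation inhibitor of hematopoietic cells, was at 0.94, 1.68, 129 and 321 FPKM, BTK, a tyrosine kinase, at 0.0438, 0.957, 55.2 and 166 FPKM, and WAS, the actin regulator of the Wiskott-Aldrich syndrome, at 0.454, 0.385, 12 and 76.3 FPKM. LAPTM5, a lysosomal membrane protein of blood cells, was already at its end level in CD31+CD34+, at 0.995, 1.3, 180.4 and 205 FPKM.

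Endothelial genes remained in part in CD43+. Of 30 listed, 13 were gained and none was lost, but 18 of the 24 that were compared were at least 1 above both ends in a middle column. The median difference over all of them was 1.29. PECAM1, the CD31 of the sort, was at 0.303 FPKM in BC1 and 0.46 in APLNR+ cells, then 93.1 in CD31+CD34+ and 126 in CD43+ cells. CD34, the other sorted antigen, was at 0.236 FPKM in BC1 and 0.645 in APLNR+ cells, then 102 in CD31+CD34+ and 42.6 in CD43+ cells. CDH5, the gene of VE-cadherin, was at 0.523, 0.663, 224 and 9.38 FPKM, and PLVAP, a fenestral diaphragm protein, at 2.52, 6.5, 1449.5 and 52.8 FPKM. Both counted as gained because their CD43+ level lay above BC1, while most of the CD31+CD34+ level was gone. SOX7, an endothelial SoxF factor, was at 0.292, 1.16, 84.5 and 0.917 FPKM and did not enter the comparison. ESAM, a junction molecule of endothelium and platelets, was at 0.162, 0.416, 98 and 76.5 FPKM, and MMRN1, a multimerin of platelets and endothelium, at 0.0324, 0.0495, 12.5 and 102 FPKM. ICAM2, an adhesion molecule of endothelium and platelets, was at 0.00917, 0.814, 71.9 and 65.7 FPKM, close between CD31+CD34+ and CD43+.

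Many of the gains were completed only in CD43+. A gained gene was counted as having reached its end level when a middle column was within 1 of CD43+ or above it. By this count 81 genes (8.79%) were there in APLNR+ and CD31+CD34+, 298 (32.4%) first in CD31+CD34+ and 519 (56.4%) only in CD43+, and 23 reached the level in APLNR+, left it and came back. The median gained gene had made 7.1% of its net difference in APLNR+ and 58.1% in CD31+CD34+. In 377 genes (40.9%) every step went up.

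Losses were further along in APLNR+. Of the lost genes, 258 (22.2%) were at the CD43+ level from APLNR+ on, 374 (32.2%) from CD31+CD34+ on and 477 (41.1%) only in CD43+, and 51 reached it in APLNR+, left it and came back. The median lost gene had made 35.4% of its net difference in APLNR+ and 73.3% in CD31+CD34+, and in 616 genes (53.1%) every step went down. With a pseudocount of 0.1 the medians were 29.7% for lost and 11.8% for gained genes in APLNR+, but 64.9% and 64.4% in CD31+CD34+. The contrast in CD31+CD34+ was thus nearly absent under that setting, which also called more genes, 2304 lost and 1631 gained. Among the genes of the report at 10 FPKM or more, the medians in CD31+CD34+ were 68.1% for lost and 61.7% for gained genes. The limit of 1 is strict for genes that end near 0: POU5F1 counts as lost only in CD43+ although 1.87 FPKM were left in CD31+CD34+.

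**Figure D3:**
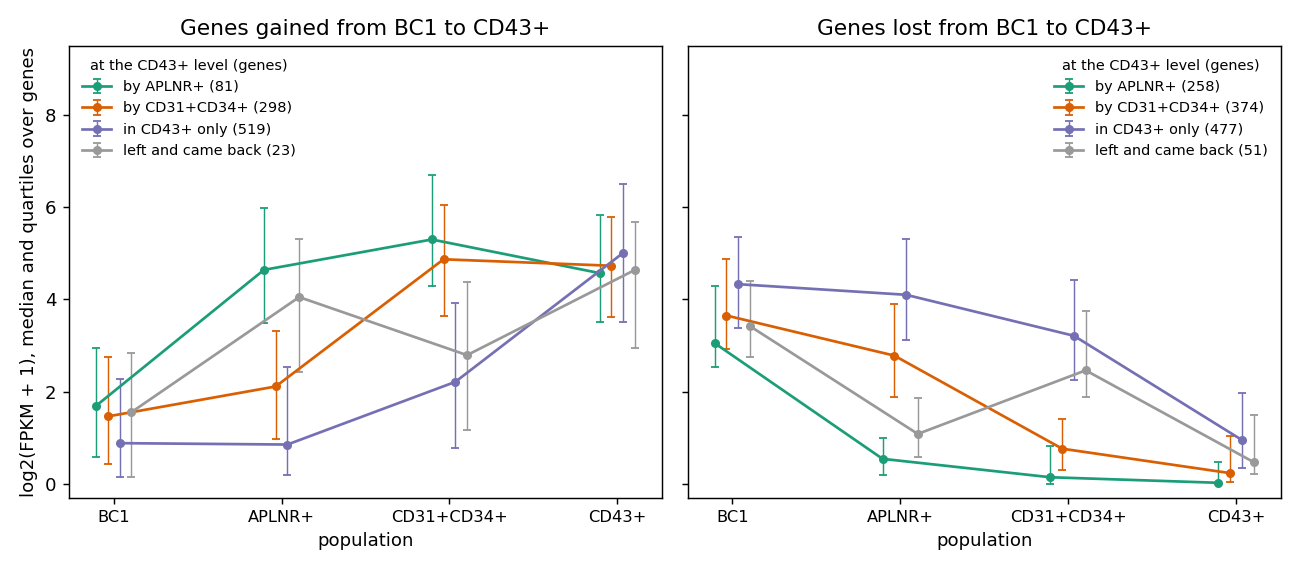
Points are medians and bars quartiles over genes of log2(FPKM + 1) in the 4 populations (x axis, 1 library each), for gained genes on the left and lost genes on the right, split by the population in which the CD43+ level was reached. Genes gained in CD43+ only went from a median of 0.88 in BC1 to 5.01 in CD43+, with 2.21 in CD31+CD34+.

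The routes held different genes. Gained from APLNR+ on were SP5, a Wnt target factor, at 0.258, 55.6, 61.4 and 58.9 FPKM, the homeobox genes HOXB2 at 0.115, 17, 42 and 28.4 FPKM and MSX1 at 0.0907, 24, 22.1 and 25.3 FPKM. GADD45A, a stress and demethylation gene, took the same route at 13.7, 144, 155 and 194 FPKM. CDH11, a mesenchymal cadherin, was at 2.3, 59.1, 158 and 51.9 FPKM, with its highest level in CD31+CD34+. Each of these genes was above its BC1 level in all 3 sorted populations. GAD1, the enzyme that forms GABA, was among the 12 largest gains and was high from CD31+CD34+ on, at 0.171, 4.21, 317 and 585 FPKM. F2RL2, a thrombin receptor cofactor, followed the same route at 0.0448, 1.75, 221 and 156 FPKM. Other large gains reached their end level last. DLK1, a noncanonical Notch ligand of fetal tissues, reached it in CD43+ only, at 0.379, 3.11, 1.38 and 415 FPKM. TIMP3, a metalloproteinase inhibitor, took the same route at 1.1, 8.94, 73.9 and 726 FPKM. So did MYL4, an atrial and embryonic myosin light chain, at 0, 14.5, 26.3 and 260.1 FPKM. TIMP3 and MYL4 were already above BC1 in CD31+CD34+, by 5.16 and 4.77 on the log2 scale.

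Some genes reversed direction on the way. KLF6, a zinc finger factor, was at 4.5, 31.9, 19.5 and 46.6 FPKM, and APOBEC3G, a cytidine deaminase, at 0.618, 46.4, 4.89 and 12.2 FPKM, both lower in CD31+CD34+ than on either side. KSR1, a scaffold of the MAP kinase pathway, was at 55.7, 191, 147 and 366 FPKM, and ACSS2, an acetyl-CoA synthetase, at 9.69, 56.9, 24.9 and 87.9 FPKM, with the same dip. PCDH1, a protocadherin, showed the reverse among the lost genes, at 42.4, 1.7, 4.64 and 0.409 FPKM. CD24, a surface antigen of pluripotent cells, was at 861, 119, 269 and 61.9 FPKM, high again in CD31+CD34+ before it ended low. In all, 73 gained genes were more than 1 above their CD43+ level in a middle column, led by HAPLN1, a hyaluronan link protein, at 0.606, 75.4, 437 and 6.76 FPKM, and APLNR, the sorted apelin receptor, at 0.782, 1073, 209 and 25 FPKM. GATA6, a mesendoderm factor, was at 0.0434, 363, 57.8 and 12.3 FPKM, and BMPER, a BMP-binding endothelial regulator, at 0.317, 144, 136 and 4.61 FPKM. PCAT14, a noncoding RNA, peaked later, at 0.333, 28.1, 133 and 5.08 FPKM. Of the lost genes, 95 were more than 1 above their BC1 level in a middle column.

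Genes of basic cell machinery were mostly kept, where 37.4% of all compared genes were kept. All 32 listed cytosolic ribosomal protein genes were kept, as were 23 of 26 oxidative phosphorylation genes, 20 of 28 proteasome genes and 16 of 28 core spliceosome genes, and no member of these lists was gained or lost. RPS27, a small subunit protein, was at 6167 FPKM in BC1 and 4839 in APLNR+ cells, then 4365 in CD31+CD34+ and 6252 in CD43+ cells, a ratio of 1.01 (0.988 to 1.04). The mitochondrial gene MT-CO2, a subunit of cytochrome oxidase, was at 5146, 4310.3, 4722 and 5857 FPKM, and GAPDH at 3325, 2647, 2727 and 3163 FPKM. The largest differences in these lists were small. SDHA, a succinate dehydrogenase subunit, was at 32.2 FPKM in BC1 and 51.1 in CD43+, SNRPF, an Sm core protein, at 134 and 64.8, and PSMD11, a proteasome lid subunit, at 111 and 59.99. Of 21 glycolysis genes, 9 were kept, near the share of all compared genes, and none was gained or lost. ALDOA, an aldolase, was higher at 1742 FPKM in CD43+ against 687 in BC1, and the glucose transporter gene SLC2A1 was lower, at 128 against 260.0. Of 28 reference genes, 14 were kept and B2M was gained, at 93.9, 172, 308 and 799 FPKM.

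Of 12 DNA methylation genes, 4 were kept, 2 were gained and 2 were lost. Over all compared genes, 37.4% were kept, 5.79% gained and 7.30% lost. DNMT1, the maintenance methyltransferase, was at 92.9, 77.4, 63.8 and 96.6 FPKM, and UHRF1, its guide to replicated DNA, at 32, 50.7, 34.6 and 32 FPKM. TET1 and TET2, which oxidize methylated cytosine, differed in opposite directions. TET1 was at 7.33, 8.05, 2.02 and 0.596 FPKM and TET2 at 0.318, 0.863, 2.93 and 4.71 FPKM. Of 32 cell cycle genes, 13 were kept, also near the share of all compared genes, 4 were gained and 1 was lost. The lost member was the cyclin gene CCND1, at 97.2, 138, 93 and 14.2 FPKM, and its paralog CCND3 was gained, at 18.2, 56.1, 129 and 446 FPKM. The other gains were the inhibitors CDKN1A, CDKN1C and CDKN2D, with CDKN1C at 2.52, 6.72, 36.3 and 95.2 FPKM, while PCNA, the replication clamp, was kept at 179 and 177 FPKM. The mitotic genes CCNB1 and CDC20 missed the limit, with CCNB1 at 123, 117, 94.9 and 39.3 FPKM and CDC20 at 99.2, 112, 95.7 and 40.5 FPKM.

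Of 14 genes of the fetal RNA-binding program, 4 were kept, including IGF2BP1 at 43.8, 63.8, 53.2 and 39.7 FPKM, 3 were gained and HMGA2, a chromatin protein at 39.5, 36.2, 32.3 and 8.79 FPKM, was lost. IGF2, a fetal growth factor, was among the gains, at 3.04, 10.6, 35.9 and 40.3 FPKM. Of 20 antigen presentation genes, 3 were gained, HLA-E among them at 10.1, 14.7, 159.8 and 62.2 FPKM, and none was lost. NLRC5, the activator of class I genes, was at 1.3, 0.098, 1.14 and 15.5 FPKM. Between the ends, the lists of mesenchymal, endoderm and cardiac genes were mixed. Of 24 mesenchymal and smooth muscle genes, 5 were gained, 3 were lost and 6 were kept. However, 11 of the 21 that were compared were at least 1 above both ends in a middle column. At the ends the list summed to 1207 FPKM (BC1) and 1362 FPKM (CD43+). The sums were larger between them, with 3264 FPKM for CD31+CD34+ and 3143 FPKM for APLNR+. TAGLN, an actin-binding protein, was at 129, 117, 74.7 and 3.52 FPKM. LOX, a collagen crosslinking enzyme, was at 0.684, 3.67, 1.12 and 56.8 FPKM. THY1, a surface antigen of pluripotent and stromal cells, was high again in CD31+CD34+, at 410.0, 76.3, 339.6 and 27.6 FPKM. Of 15 endoderm and hepatic genes, 8 of them compared, 1 was gained and 2 were lost. Of 12 cardiac genes, 5 of them compared, 1 was gained and 1 was lost. Over all compared genes, 5.79% were gained, 7.30% lost and 37.4% kept, and the lists of this paragraph were not tested against these shares. AFP, the fetal serum protein, was at 11.5, 14.7, 0.188 and 0.104 FPKM, and TNNT2, a cardiac troponin, at 22.5, 1.2, 0.178 and 0 FPKM. NKX2-5, a cardiac factor, was highest in CD31+CD34+, at 0.035, 9.77, 69.2 and 1.23 FPKM.

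**Figure D4:**
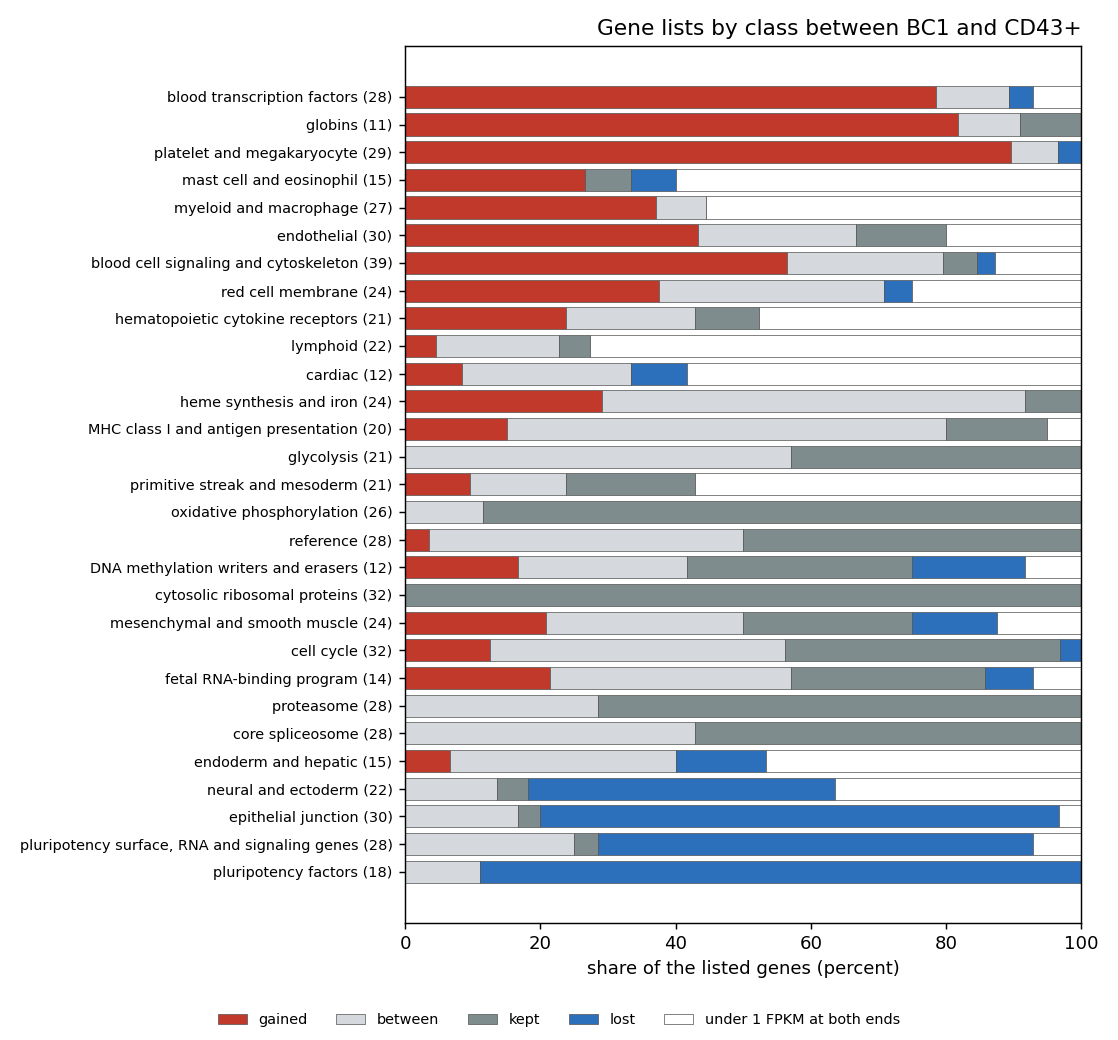
Bars give the share of the genes of each list (size in brackets) that were gained, between the limits, kept, lost or under 1 FPKM at both ends, ordered by the median difference of the members above that level. Platelet genes (26 of 29) and blood transcription factors (22 of 28) are mostly gained, pluripotency factors (16 of 18) mostly lost, and cytosolic ribosomal protein genes (32 of 32) all kept.

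Equal end points did not always mean a constant level. Of the 5948 kept genes, 5387 (90.6%) stayed within 1 of both ends throughout, 89 were at least 2 above both ends in a middle column and 20 at least 2 below. BMP4, a ligand of mesoderm induction that was also added to the medium as protein, was at 1.83 FPKM in BC1 and 305 in APLNR+ cells, then 12 in CD31+CD34+ and 1.33 in CD43+ cells. WLS, which exports Wnt proteins, was at 1.04, 160.3, 77.5 and 1.54 FPKM, COL5A1, a fibrillar collagen, at 6.13, 325, 143 and 7.38 FPKM, and ROR2, a Wnt receptor kinase, at 1.36, 78.3, 8.31 and 1.11 FPKM. SERPINE2, a protease inhibitor, was at 29.9, 851, 122 and 35.3 FPKM. All of these peaked in APLNR+. FLT4 and KDR, VEGF receptors, peaked in CD31+CD34+, FLT4 at 7.34, 4.91, 193 and 6.36 FPKM and KDR at 33.1, 69.96, 569 and 38 FPKM. MAF, a bZIP factor, had the same shape at 1.42, 5.51, 54.8 and 1.6 FPKM. The ratio of the higher to the lower end was 1.38 for BMP4 (0.852 to 2.27) and 1.13 for MAF (0.806 to 1.59), both with counting intervals that include 1. SCAMP5, a secretory carrier protein, showed the opposite shape, at 24.6, 2.49, 10.2 and 30.02 FPKM. The other 4 of the 5 deepest falls were short transcripts for which no fragments could be estimated.

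**Figure D5:**
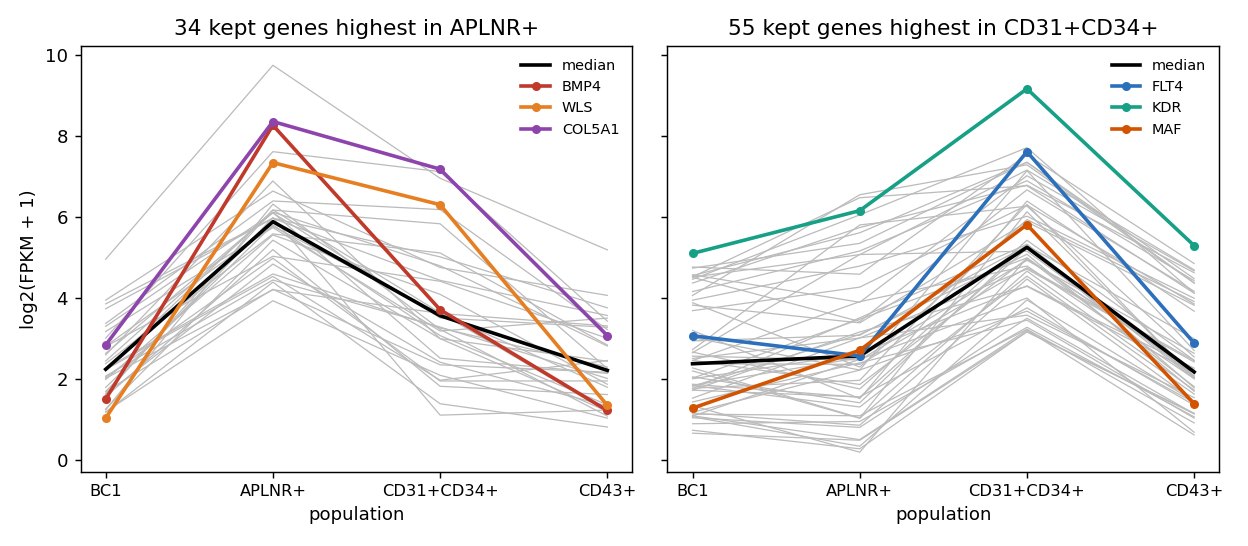
Lines are the 89 kept genes at least 2 above both ends in a middle column, as log2(FPKM + 1) in the 4 populations (x axis, 1 library each). The black line is the median, and colored lines are genes named in the text. The 34 genes on the left were highest in APLNR+ and the 55 on the right in CD31+CD34+, and all return to near their BC1 level in CD43+.

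Primitive streak genes were mostly absent from both ends. Of 21 listed primitive streak and mesoderm genes, 12 were under 1 FPKM at both ends, 2 were gained and 4 were kept. Over all compared genes, 5.79% were gained and 37.4% kept. MIXL1 and EOMES, factors of the primitive streak, were at 474 and 205 FPKM in APLNR+ and below 1 FPKM in the other libraries. CER1, a secreted Nodal and BMP antagonist, was at 2.5, 2991, 0.0905 and 0.0497 FPKM. In all, 1243 genes were under 1 FPKM at both ends and at 1 FPKM or more in a middle column, and 107 of them reached 10 FPKM, 68 with their highest level in APLNR+ and 39 in CD31+CD34+. HAND1, a mesoderm bHLH factor, was at 0.309, 357, 5.57 and 0.796 FPKM, and FCN3, a lectin of the complement system, at 0.413, 0.254, 192 and 0.558 FPKM. These genes did not enter the comparison of the ends.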

How the data were processed

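Each of the 4 populations was sequenced as 1 total RNA library (day 2, day 5 and day 8 for the sorted populations), and 1 table of FPKM per gene was used. FPKM values were deposited by the authors. BWA, Bowtie and RSEM are named without roles in the submitters' processing notes, as is hg19, but the positions of 55570 of 55572 identifiers matched GENCODE 29 on GRCh38, the build used here. The table held 58365 rows for 58274 gene identifiers, and rows of the 90 repeated identifiers were summed. All values were compared as log2(FPKM + 1), which understates differences of low genes. Values stepped by whole fragments for 92.9% to 94.9% of those used (within 0.1 of a whole number), which gave the depths. At 1 FPKM a transcript of 2 kb then holds 34.0 to 40.2 fragments, a counting error of 15.8% to 17.2%. Exact Clopper-Pearson 95% intervals of ratios were computed from these estimated fragments. Where the lower library held no fragment after rounding, the ratio is a lower bound taken against a floor of 3 fragments. Other lower libraries at or under this floor were given intervals, which are wide.

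The genes named were the 4 markers, the 12 largest gains and losses at 10 FPKM or more with a transcript of at least 300 bases, the 3 largest differences of each of 29 lists with the largest in the other direction, and the leading genes of each route and of the kept genes. Members and lists were chosen with earlier results of these data known. With 1 library per population no test was run and no replicate could be compared. The procedure was tested on simulated data. Python 3.11.15, pandas 2.3.3, numpy 2.4.6 and scipy 1.17.1 were used.

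Some genes are not reported here.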

Additional observations from a re-analysis of the deposited data

How the results depend on the processing

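The choice of pseudocount had the widest effect. With a pseudocount of 0.1 in place of 1, 1631 genes were gained and 2304 lost, including all 921 and 1160 genes of the report. Under that setting 851 gains were in CD43+ only and 730 were at their end level by CD31+CD34+ (379 in the report), 164 gained genes were above the CD43+ level in the middle, 1177 losses were in CD43+ only, 242 lost genes were above the BC1 level in the middle and 95 kept genes dipped. With no filter on low values 18635 genes were kept, 289 with a rise in the middle, and a filter of 5 FPKM left 39 such rises. Protein-coding genes alone had 12 dips. A limit of 1 gave 2601 gained and 3233 lost genes, a limit of 3 gave 429 and 504, and 10060 genes differed by under 1. With a tolerance of 0.5 for reaching an end level, 114 gained genes were above the CD43+ level, 138 losses were complete by APLNR+ and 167 lost genes were above the BC1 level. Excursions of 1 beyond both ends numbered 373 rises and 200 dips among kept genes. Scaling the columns by their median ratios, with factors of 0.966 to 1.038, or using the largest row of each identifier left all 11 counts within 1.5 times. Of the 29 list medians, 14 moved with the smaller pseudocount, among them those of pluripotency factors (-7.72), epithelial junctions (-4.42), endothelial genes (3.30), blood transcription factors (6.99), globins (8.82), red cell membrane genes (4.63, against 2.08 over members at 1 FPKM) and platelet genes (6.87). With no filter 8 moved and kept their sign, to -1.25 for neural, -0.52 for endoderm, 1.29 for endothelial, 5.20 for blood transcription factor, 0.35 for myeloid, 0.23 for mast cell, 0.11 for lymphoid and 0.24 for receptor genes. The cardiac list had a median difference of 1.11 over members at 1 FPKM and -0.02 over all 12. Of the named genes, CER1 (-4.12) and HLA-G (-4.68) would be lost and TBX20 (4.23) and NKX2-5 (3.30) gained with the smaller pseudocount. For these moves the cause was not tested.

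No paired analysis was possible because each population had 1 library, and leaving a library out would leave an end point empty. The differences cover 1 line and 1 sort of each population, so line, sort and population cannot be told apart. Counting error is small for genes above 10 FPKM, and levels near 0 rest on few fragments.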

Other observations

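Interferon-stimulated genes were among the gains outside the lists above, and the 38 genes used here were chosen after these values were seen. Of them, 25 were gained, 22 of these in CD43+ only, and 2 were lost. Over all compared genes, 5.79% were gained and 7.30% lost, and 56.4% of all gained genes were gained in CD43+ only. Because the list came from the same values, its counts were not tested against these shares. IFI6 was at 5.07, 4.6, 8.61 and 1675 FPKM in BC1, APLNR+, CD31+CD34+ and CD43+, ISG15, a ubiquitin-like protein, at 13.2, 10.6, 35.2 and 1049 FPKM, and MX1, an antiviral GTPase, at 1.35, 0.302, 0.636 and 177 FPKM. IRF7, a factor of the interferon response, was at 95.1 FPKM in CD43+ against 3.07 in BC1. TRIM22 and IFI30 were lost, with TRIM22 at 38, 1.23, 1.34 and 5.24 FPKM. MX2 and HERC5 were kept. The summed level of the 38 genes was 734 FPKM in BC1 and 442 in APLNR+ cells, then 1424 in CD31+CD34+ and 6488 in CD43+ cells.

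Immediate-early genes respond within minutes to growth factors, stress and cell handling. Of 28 genes chosen after the values were seen, 13 were gained, 8 of these in CD43+ only, and 2 were lost. The shares over all compared genes were 5.79% gained and 7.30% lost, with 56.4% of gained genes in CD43+ only. The route and the losses of this list were thus near those of all genes, and its gains come from a list chosen on these values. FOS was at 5.52, 9.47, 27.9 and 455 FPKM, FOSB at 1.12, 0.633, 9.15 and 422 FPKM and EGR1 at 2.21, 11.5, 34.6 and 239 FPKM along the order of differentiation. SOCS3 and CTGF were the members lost, and others such as IER3 at 2.27, 43.2, 2.15 and 0.0964 FPKM and CYR61 at 35.8, 9.34, 13.2 and 14.5 FPKM were lower in CD43+ than in BC1 without passing the limit. BC1 was not described as sorted while the CD43+ cells were, and the part of sorting in these levels was not tested.

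Among some genes with a shared symbol stem, a member was lost while another was gained. Among 2353 symbol stems with 2 to 12 compared protein-coding members, 57 held both a gained and a lost gene at 10 FPKM or more, a count chosen after the values were seen. Of all compared genes 5.79% were gained and 7.30% lost, and the number of such stems expected from these shares was not computed. ITGB5 was at 189, 343, 35.8 and 27.2 FPKM and ITGB3 at 0.0753, 0.0673, 6.68 and 501 FPKM, so the order of these beta chains by FPKM differed between the ends. The tubulin TUBB2B was at 388, 314, 120.2 and 6.99 FPKM beside TUBB1 at 0.0637, 0.216, 0.238 and 68.9 FPKM, and the connexin GJA1 at 343, 339, 44.4 and 9.94 FPKM beside GJA4 at 6.66, 1.3, 49.4 and 151 FPKM. The inhibitory SMAD7 was at 13, 46, 32.2 and 1.27 FPKM and SMAD6 at 3.21, 206, 486 and 24.2 FPKM, both higher in the middle than at either end. A stem is a run of letters, as for CD7 and CD9, so it does not establish that the members form a family or have the same function.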
